A study of Mus musculus with 19 samples.

Results

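The mouse genes Zfp900 to Zfp999 are a run of zinc finger gene names, most of which belong to the KRAB zinc finger family. Their symbols were matched in a table of 39017 genes, which held 64 of them, and the 50 with a count of at least 10 in 4 or more of 18 libraries are described here. The libraries came from a mouse mammary carcinoma line, E0771, that carried the red fluorescent protein mCherry. The cells had been implanted into the mammary fat pad of C57BL/6 mice that were lean (titled Chow) or obese (titled HFD), and mCherry-positive cells were sorted from dissociated tumors at day 14 (midpoint) or day 21 (endpoint). The groups held 4 lean and 5 obese libraries at midpoint and 4 lean and 5 obese libraries at endpoint. Each library came from a separate tumor, so the spread within a group is a spread between tumors. All groups carried the same cell line, and the labels give neither age nor sex of the mice.

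A KRAB zinc finger protein binds DNA through a row of C2H2 zinc fingers, each of which contacts a few bases. Its KRAB domain recruits the corepressor TRIM28 (also called KAP1), which brings the histone methyltransferase SETDB1, HP1 proteins and other silencing factors. Many of these proteins bind and silence transposable elements, mainly in embryos and germ cells, and most of the family arose by repeated local duplication. Close copies therefore lie side by side in the genome, and the function of most single members is unknown. The genes are usually transcribed at low levels in somatic cells and tumors.

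The 18 libraries held 44174080 to 56996252 counts each. Values are given as CPM, each library's counts brought to a common total and scaled by the TMM method. Libraries differed in how expression followed the GC content of genes. This was measured on each gene's log2 CPM relative to its own mean over the 18 libraries. At midpoint this relative value was higher by 0.28 ± 0.18 log2 units (SD, n = 4) per 10 percentage points of GC in lean mice. In obese mice it was higher by 1.01 ± 0.50 (SD, n = 5). This GC slope was -0.60 ± 0.37 (SD, n = 4) and -0.75 ± 0.19 (SD, n = 5) at endpoint. Mitochondrial transcripts took 5.79 to 12.3% of counts at midpoint and 17.1 to 44.7% at endpoint. The transcripts of the 50 genes had a median GC content of 38.7%, against 50.2% for the genes tested, and 48 of the 50 lay below that median. Every comparison is therefore given both as scaled and after a correction for GC content and length. The labels give no dates, so time after implantation and handling of the tumors cannot be told apart. Of 8 epithelial markers only Krt8, a keratin, was high enough to be tested (20.9 ± 2.51 to 47.8 ± 12.6 CPM as group means with SD, n = 4 or 5). By edgeR, as scaled, Krt8 was higher in obese than in lean mice at midpoint and fell with time in obese mice. Epcam and Cdh1 stayed under 0.2 CPM in every group mean. Markers of other cell types moved between the groups in both directions. The 7 pan-leukocyte markers summed to 131 to 264 CPM in lean and 97.7 to 202 CPM in obese midpoint libraries, and to 112 to 167 and 84.2 to 324 CPM at endpoint. By edgeR 4 of the 7 fell with time in lean mice, 3 rose and 2 fell with time in obese mice, and 3 were lower in obese mice at midpoint. The 11 macrophage markers summed to 227 to 538 CPM in lean and 171 to 330 CPM in obese midpoint libraries, where 4 were lower in obese mice, and to 234 to 411 and 130 to 708 CPM at endpoint. With time 1 of the 11 rose in lean and 2 rose in obese mice. The 7 fibroblast markers summed to 1919 to 2264 and 974 to 2520 CPM at midpoint, and to 1569 to 2376 and 1644 to 2773 CPM at endpoint, most of it Col3a1. With time 3 rose and 2 fell in lean and 4 rose and 2 fell in obese mice, and 1 was lower in obese mice at midpoint. In obese mice Dcn, the matrix proteoglycan decorin, went from 0.772 ± 0.524 to 30.7 ± 16.04 CPM (SD, n = 5 and 5). The collagen genes Col1a1 and Col1a2 went the other way, from 10.1 ± 3.92 to 2.73 ± 1.01 and from 6.40 ± 1.21 to 3.04 ± 1.06 CPM. The 6 T and NK cell markers summed to 3.34 to 5.15 CPM at midpoint and 0.847 to 2.28 CPM at endpoint in lean mice, and to 2.72 to 8.27 and 1.13 to 4.32 CPM in obese mice. Of the 5 tested, 2 fell in lean and 3 in obese mice. Of 5 tested erythroid markers 2 rose with time in obese mice. Of 4 tested endothelial markers 1 was lower in obese mice at midpoint and 1 fell with time in lean mice. The summed adipocyte markers (4 genes) were higher at endpoint, at 18.9 to 79.4 against 5.45 to 9.63 CPM in lean and at 10.7 to 17.7 against 3.84 to 8.29 CPM in obese mice. Most of that sum was Fabp4, a fatty acid binding protein, which had 4.02 ± 1.72 CPM in obese midpoint libraries (SD, n = 5). Of the 2 tested 1 rose and 1 fell with time in each diet, and 1 was higher in obese mice at midpoint. Plin1, a lipid droplet protein, had 1.38 ± 0.587 CPM at midpoint and 0.101 ± 0.165 CPM at endpoint in obese mice (SD, n = 5 and 5). Adipoq, which defines adipocytes, had group means of at most 0.0232 CPM. The part of other cell types in the results below was not tested, and in bulk samples fewer cells of a type and less RNA per cell cannot be told apart.

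The 50 genes lay on 11 chromosomes, and most of them in clusters, defined as runs of at least 3 of the 64 genes with under 2 Mb between neighbouring starts. In mm10 the chromosome 4 cluster spans chr4:145510759-147848366 and held 16 of the 64 genes, of which 13 had the required counts. The chromosome 17 cluster, at chr17:21567046-22867134, held 10, all with the required counts. The chromosome 2 cluster, at chr2:175372436-178078476, held 10, of which 4 had the required counts. The other clusters, at chr7:42579783-43190481 and chr8:69226343-69749970, held 4 and 3 genes with 2 each at the required counts. Of the remaining 21 genes, scattered over the genome, 19 had them. Of the 14 genes below the minimum, 6 belonged to the chromosome 2 cluster.

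The minimum separated a wide gap of counts. Just inside it were Zfp934 and Zfp972, whose 4th highest counts were 14 and 18. Just outside it were Zfp987 and Zfp973, whose 4th highest counts were 4 and 3. The highest count of any excluded gene in any library was 8. Of the 50 genes, 34 reached 10 counts in all 18 libraries, and 46 had enough midpoint libraries to pass on those alone. Zfp934, Zfp937, Zfp991 and Zfp993 passed only through endpoint libraries, and a rise with time in these genes was in part built into their choice. Of the other 46, 41 rose and 2 fell with time in obese mice as scaled, where 37.8% of all tested genes rose and 36.1% fell. After the correction 18 of the 46 rose and 7 fell, where 29.4% of all tested genes rose and 25% fell. The deposited counting may have split or merged reads of close copies. The share of 50-base stretches of a gene's transcripts that also occurs in another gene had a median of 17.1% over the 50 genes and of 78.0% over the 14 excluded ones. It was above 50% in 10 of the 50, whose values are the least certain, and below 10% in 19.

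Coding sequences were known for 49 of the 50 genes (Zfp939 is annotated as a transcribed pseudogene), and the encoded proteins had a median length of 504 residues, from 139 to 794. Of these, 46 held at least 3 C2H2 fingers, with a median of 11. Zfp974 had the longest row, with 21, and Zfp935 and Zfp972 had none. A short signature of the KRAB A box was found in 44 of the 49, and in 281 of 21732 coding genes of the whole table. It was not found in Zfp934, Zfp949, Zfp954, Zfp956 and Zfp974, which says only that these letters are absent.

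Promoters are shown for the best-expressed chromosome 4 gene and its close copies, for a similar pair on chromosome 2, and for a gene outside the clusters whose change with time went the other way. Each is the 250 bases before the annotated start, 5′ to 3′ on the strand of the gene, from RefSeq (GRCm38.p6), with every CCAAT or its complement in capitals. They lie at chr4:147642509-147642758 (minus strand), chr4:147492167-147492416 (plus), chr4:147553027-147553276 (plus), chr2:177464492-177464741 (plus), chr2:178023034-178023283 (plus) and chr7:7121477-7121726 (minus).
Zfp979: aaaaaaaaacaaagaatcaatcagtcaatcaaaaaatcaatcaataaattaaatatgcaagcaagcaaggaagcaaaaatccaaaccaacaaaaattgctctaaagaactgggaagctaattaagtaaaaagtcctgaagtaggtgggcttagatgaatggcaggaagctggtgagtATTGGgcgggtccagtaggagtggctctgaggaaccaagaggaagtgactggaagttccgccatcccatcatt
Zfp982: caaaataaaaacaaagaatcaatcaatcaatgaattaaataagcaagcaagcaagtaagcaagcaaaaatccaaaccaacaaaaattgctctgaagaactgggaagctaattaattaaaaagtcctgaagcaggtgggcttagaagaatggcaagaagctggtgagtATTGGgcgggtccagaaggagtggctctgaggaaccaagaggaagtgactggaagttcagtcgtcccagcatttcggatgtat
Zfp985: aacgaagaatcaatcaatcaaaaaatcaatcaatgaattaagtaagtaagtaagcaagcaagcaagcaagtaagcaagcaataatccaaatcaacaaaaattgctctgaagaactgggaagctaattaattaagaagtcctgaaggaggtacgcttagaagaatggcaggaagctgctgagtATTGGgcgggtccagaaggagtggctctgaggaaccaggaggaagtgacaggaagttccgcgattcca
Zfp970: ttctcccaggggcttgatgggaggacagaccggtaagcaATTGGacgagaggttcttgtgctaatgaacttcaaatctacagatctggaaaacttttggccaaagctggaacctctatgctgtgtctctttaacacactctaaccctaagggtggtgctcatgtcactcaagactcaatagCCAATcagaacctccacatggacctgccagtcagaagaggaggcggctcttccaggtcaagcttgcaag
Zfp971: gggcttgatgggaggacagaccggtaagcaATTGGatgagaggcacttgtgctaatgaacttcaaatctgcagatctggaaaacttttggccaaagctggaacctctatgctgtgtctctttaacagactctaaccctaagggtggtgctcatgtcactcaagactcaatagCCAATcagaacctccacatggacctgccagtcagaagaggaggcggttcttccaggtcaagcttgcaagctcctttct
Zfp954: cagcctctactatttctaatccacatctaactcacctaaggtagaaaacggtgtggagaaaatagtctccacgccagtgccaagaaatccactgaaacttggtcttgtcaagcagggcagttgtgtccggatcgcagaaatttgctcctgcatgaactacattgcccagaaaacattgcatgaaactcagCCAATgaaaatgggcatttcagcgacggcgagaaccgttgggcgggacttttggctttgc

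The 3 chromosome 4 promoters carried the complement ATTGG 73, 83 and 68 bases before the start, followed at once by gcggg. The chromosome 2 pair carried CCAAT 69 and 78 bases before the start and ATTGG further upstream, and Zfp954 had CCAAT 60 bases before it. In global alignments of 300-base windows, which also hold the 50 bases after the start, Zfp970 and Zfp971 were 91.9% identical. Zfp979 was 84.9% identical to Zfp982 and 82.3% to Zfp985. Pairs within the chromosome 2 cluster had a median identity of 74.4% (6 pairs) and pairs within the chromosome 4 cluster 60.9% (28 pairs). Within the chromosome 17 cluster the median was 50% (45 pairs), near the 50.3% of the 781 pairs from different places, although Zfp942 and Zfp944 there reached 84.3%.

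RefSeq windows were matched for 42 of the 50 genes and searched on both strands for 8 motifs. These 42 genes had 50 windows, several for 6 of them, and 1 window per gene was used. The shares over all genes are per window and may hold several windows of a gene, so the 2 shares are not counted alike. CCAAT, the site of the factor NF-Y, occurred in 31 of 42 (73.8%), against 37.4% of 32851 windows of all genes. It was present in 4 of 4 matched genes of the chromosome 2 cluster, 6 of 8 of the chromosome 4 cluster and 3 of 10 of the chromosome 17 cluster. The last carried the E-box CACGTG in 6 of 10 windows, whereas 7 of 42 (16.7%) held it in all, against 7.15% of all windows. GGCGGG, a GC box that overlaps ATTGG by 1 base in ATTGGGCGGG, occurred in 22 of 42 (52.4%, against 35.3%), and CCGGAAG, an ETS site, in 7 (16.7%, against 8.86%). GCCATNTT, the YY1 site, was found in 3 of 42 (7.14%, against 6.05%). No member window held TATAAA, the TATA box (13.6% of all windows), the palindromic NRF1 site (0.971%), or TGACGTCA, the CRE (1.79%). The GC content of the member windows had a median of 50.8%, near the 52.7% of all windows, unlike that of the transcripts. Close copies share ancestry, so these windows are not independent of each other. The windows of Zfp942 (chr17:21962415-21962714) and Zfp943 (chr17:21962309-21962608) also overlap, so a motif in the shared stretch counts for both genes.

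The genes were expressed at low levels. The mean of the 4 group means lay between 0.151 and 24.9 CPM, with a median of 2.15 CPM over the 50. For all 16352 genes tested the median of the mean over libraries, a slightly different measure, was 12.9 CPM. A mean over libraries of 1 CPM or more was reached by 35 of the 50 and 10 CPM or more by 4. Per kb of gene length the highest levels belonged to Zfp954 (6.44 CPM per kb), Zfp979 (6.06), Zfp948 (5.23), Zfp961 (3.62) and Zfp985 (2.96). At midpoint the 50 genes summed to 95.4 ± 17.3 CPM in lean libraries (SD, n = 4), and obese libraries held 78.9 ± 14.3 CPM (SD, n = 5). At endpoint the sums were 220 ± 76.7 CPM for lean libraries (SD, n = 4), while obese libraries reached 318 ± 104 CPM (SD, n = 5). The lowest endpoint library, lean replicate 2 at 110 CPM, lay below the highest midpoint library, lean replicate 4 at 120 CPM. Obese endpoint libraries, from 185 to 457 CPM, did not overlap either midpoint group.

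**Figure D1:**
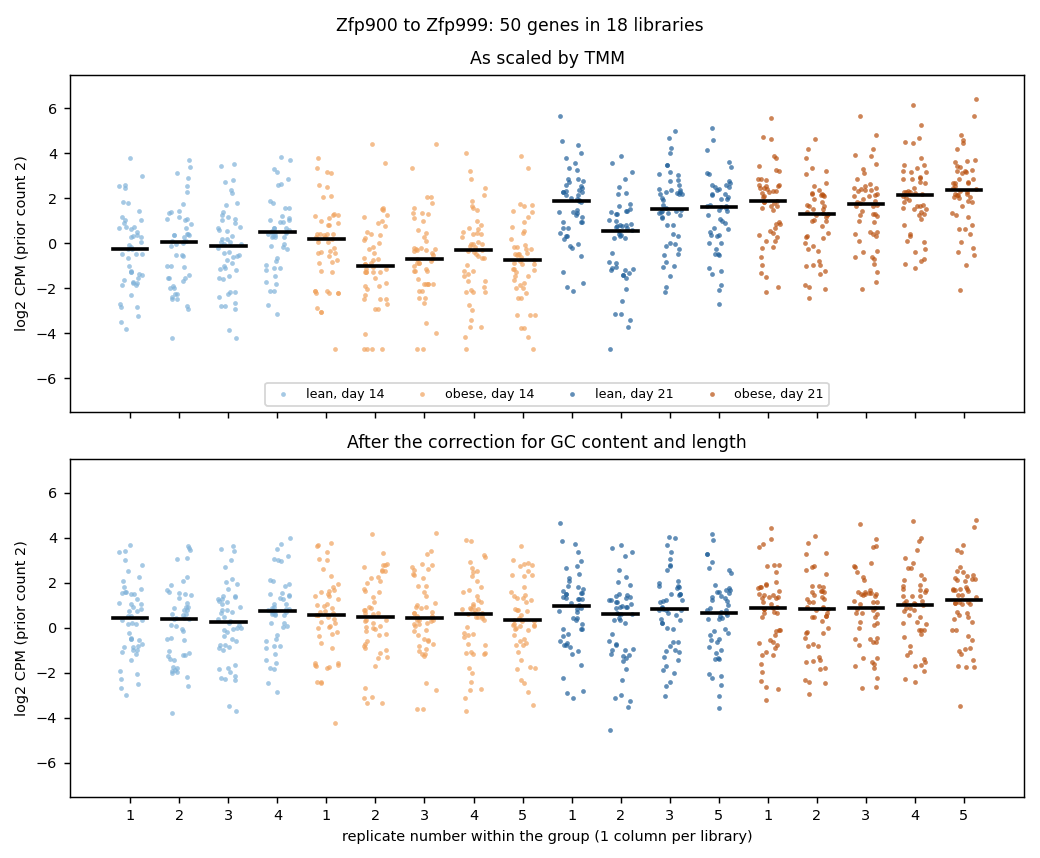
Log2 CPM of each of the 50 genes (points) in each of 18 libraries (columns, grouped by diet and day, bars at the library median), as scaled by TMM above and after the correction for GC content and length below. The medians of the groups lay at 0.05, -0.51, 1.40 and 1.88 on average as scaled, and at 0.47, 0.49, 0.76 and 0.97 after the correction.

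In the plot of levels by library, the library medians of the 50 genes ranged from -0.997 to 0.50 log2 CPM at midpoint and from 0.55 to 2.36 at endpoint as scaled. After the correction they ranged from 0.28 to 0.77 and from 0.60 to 1.25. Lean endpoint replicate 2 had both the lowest endpoint median and the GC slope nearest 0 at endpoint, at -0.07, where 0 is the average library. The median shift between the time points was thus smaller after the correction, and the range of lean endpoint medians shrank with it.

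Endpoint and midpoint were compared in obese mice to ask how the sorted cells differed between day 14 and day 21. As scaled, 45 of the 50 genes rose at endpoint and Zfp954 and Zfp956 fell, with a median log2 fold change of 2.54 over the 50 and of 0.00 over all tested genes. Calls were made by edgeR's quasi-likelihood test at an adjusted p under 0.05 over all genes, which called 37.8% of tested genes higher and 36.1% lower. In 44 of the 50 every obese endpoint library lay above every obese midpoint library, as in 31.3% of tested genes, and in 2 below it, as in 28.9%. After the correction 19 of the 50 rose and 7 fell, where 29.4% of tested genes were called higher and 25% lower, and the median was 0.64 against 0.07 over all tested genes. All 19 had been called higher as scaled, and 9 of the 45 earlier rises had a value below 0. After the correction 8 of the 50 lay without overlap above midpoint, as in 20.7% of tested genes, and 3 below it, as in 19.5%. As scaled the share of rises was thus well above that of all genes. After the correction the share of called rises was above it (38% against 29.4%) and the share without overlap below it.

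**Figure D2:**
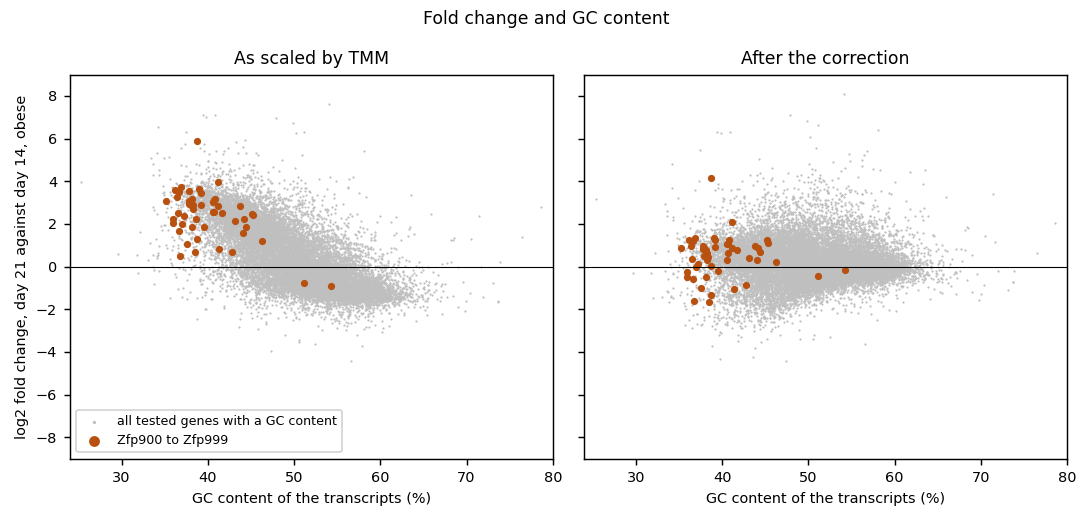
Log2 fold change of endpoint against midpoint in obese mice (vertical axis) against the GC content of the transcripts in percent (horizontal axis), for all tested genes with a known GC content (grey) and the 50 genes (orange), as scaled and after the correction. As scaled the fold change falls with GC content, with r of -0.70 over all tested genes and -0.51 over the 50. After the correction r is -0.03 and -0.01. The correction removes each library's trend with GC content over the tested genes, so the value near 0 over all genes is built in. A change of expression that followed GC content would be removed as well.

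The correlations in the plot of fold change and GC content are across genes, which share libraries and are not independent replicates. Without Zfp954 and Zfp956, the only genes of the 50 above 50% GC, r over the other 48 was -0.21 as scaled. Zfp979, in the chromosome 4 cluster at chr4:147611937-147642513, encodes a KRAB protein with 3 fingers and had the highest CPM of the 50. It stood at 8.67, 1.95, 4.12, 7.12 and 2.56 CPM in the obese midpoint libraries and at 47.0, 24.7, 50.8, 70.5 and 86.0 CPM in the obese endpoint libraries, and the groups did not overlap. Its log2 fold change was 3.51 ± 0.49 (SE, adjusted p = 4.4e-06, edgeR), and 1.18 ± 0.27 after the correction (adjusted p = 0.00103).

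Zfp948, at chr17:21567046-21588697 at the edge of the chromosome 17 cluster, encodes a KRAB protein with 15 fingers and has almost no stretch shared with another gene (0.115%). It stood at 5.90, 2.39, 4.12, 3.16 and 2.24 CPM in obese midpoint libraries and at 26.5, 13.9, 28.2, 37.8 and 50.5 CPM in obese endpoint libraries. All endpoint libraries were above all midpoint libraries, by 3.14 ± 0.42 on the log2 scale (SE, adjusted p = 2.8e-06, edgeR), and by 1.07 ± 0.26 after the correction (adjusted p = 0.00187). Zfp959, a 9-finger KRAB gene at chr17:55892184-55898584 outside the clusters, was nearly silent at midpoint. Its obese midpoint libraries held 0.371, 0.162, 0.390, 0.0913 and 0.217 CPM and its obese endpoint libraries 4.80, 2.49, 2.69, 3.98 and 5.23 CPM. This rise was 3.95 ± 0.43 on the log2 scale (SE, adjusted p = 5.0e-07, edgeR), and 2.11 ± 0.32 after the correction (adjusted p = 2.4e-05).

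Zfp974, the gene with the longest row of fingers, rose from 0.904 ± 0.357 to 6.55 ± 1.97 CPM (SD, n = 5 and 5) in obese tumors. Its log2 fold change was 2.85 ± 0.31 (SE, adjusted p = 4.8e-07, edgeR) and 0.96 ± 0.22 (adjusted p = 0.00122) after the correction. Zfp971, of the chromosome 2 promoter pair, rose by 3.43 ± 0.41 as scaled and by 1.24 ± 0.30 after the correction (SE, adjusted p = 1.0e-06 and 0.00171, edgeR), and its partner Zfp970 by 2.83 ± 0.46 and 0.86 ± 0.35 (adjusted p = 2.2e-05 and 0.0446). About 50% of the stretches of each occur in another gene (51.1% and 49.5%), so their values are uncertain. Zfp961, an 11-finger KRAB gene on chromosome 8, rose by 2.22 ± 0.35 and 0.85 ± 0.20 (SE, adjusted p = 1.5e-05 and 0.00149, edgeR). Zfp934 had the largest log2 fold change, 5.87 ± 1.01 as scaled and 4.17 ± 1.05 after the correction, but its obese midpoint counts were 0 in 4 of 5 libraries and 1 in the other, so the fitted value is no measure of size.

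Other members lost the call or turned. Zfp931, a 7-finger KRAB gene of the chromosome 2 cluster, rose by 2.52 ± 0.31 as scaled (SE, adjusted p = 1.5e-06, edgeR) and had 0.37 ± 0.20 after the correction (adjusted p = 0.126). Zfp933 (0.29 ± 0.17 after the correction, adjusted p = 0.168), Zfp952 (0.40 ± 0.20, adjusted p = 0.0938) and Zfp985 (0.44 ± 0.23, adjusted p = 0.112) also lost their calls. Zfp945, an 18-finger KRAB gene with a GC content of 36.0%, stood at 5.71, 2.89, 2.54, 4.42 and 2.65 CPM in obese midpoint and at 13.6, 10.1, 15.1, 21.7 and 24.2 CPM in obese endpoint libraries. It rose by 2.21 ± 0.28 as scaled (SE, adjusted p = 1.8e-06, edgeR), whereas the corrected value was -0.50 ± 0.16 (adjusted p = 0.0114), a called fall. Its obese groups did not overlap in CPM, and its direction turned with the correction. GC content and length were corrected together, and their parts were not separated. Zfp938, Zfp947, Zfp950, Zfp978 and Zfp982 were likewise called lower after the correction. Zfp938, a 10-finger KRAB gene, had 0.49 ± 0.25 as scaled (SE, adjusted p = 0.0766, edgeR) and -1.63 ± 0.22 corrected (adjusted p = 7.4e-06).

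Zfp954 and Zfp956 are the GC-rich members (51.1% and 54.3%), and neither has the KRAB signature. Zfp954 stood at 13.7, 21.6, 21.5, 16 and 14.5 CPM in obese midpoint and at 10.9, 9.19, 11.3, 10.03 and 9.17 CPM in obese endpoint libraries, with no overlap. It fell by 0.78 on the log2 scale (SE 0.16, adjusted p = 0.000264, edgeR) as scaled and by 0.43 (SE 0.13, adjusted p = 0.0114) after the correction. Zfp956 went from 10.01 ± 1.19 to 5.28 ± 0.317 CPM (SD, n = 5 and 5), a log2 fold change of -0.92 ± 0.17 (SE, adjusted p = 7.5e-05, edgeR) as scaled. After the correction it had -0.15 ± 0.14 (adjusted p = 0.357), so its fall was not called. Zfp954 was the only gene of the 50 called lower in both fits.

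**Figure D3:**
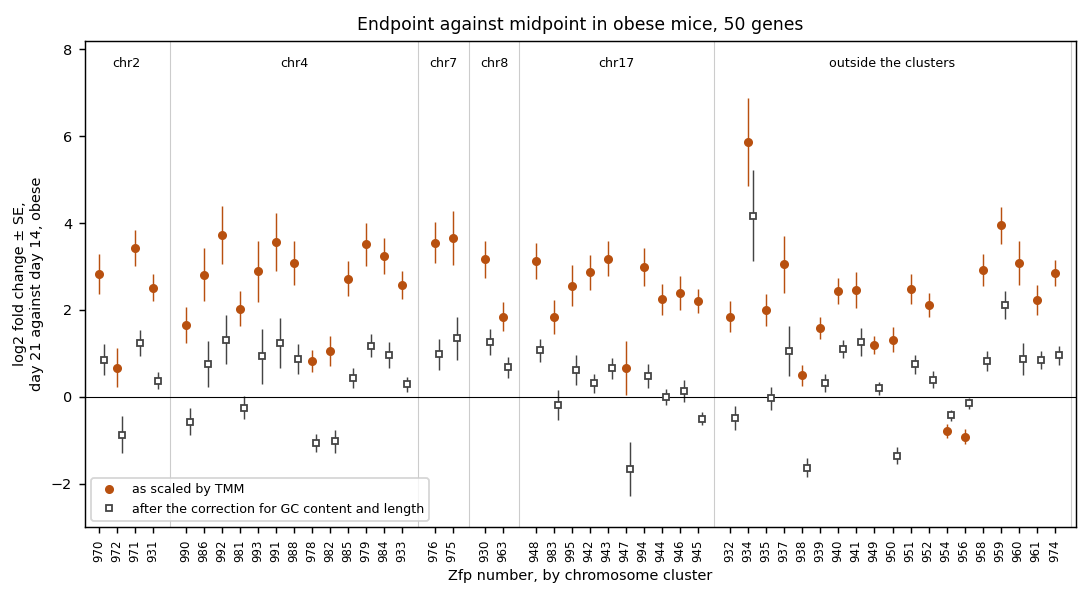
Log2 fold change with its SE, endpoint against midpoint in obese mice, for each of the 50 genes by Zfp number, in genome order within the clusters of chromosomes 2, 4, 7, 8 and 17 and by number outside them, as scaled (filled circles) and after the correction (open squares). As scaled 48 of the 50 lie above 0, and after the correction 36 do.

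The plot by cluster shows that the rise as scaled was shared by every cluster. All 13 genes of the chromosome 4 cluster rose, 9 of 10 of the chromosome 17 cluster, 3 of 4 of the chromosome 2 cluster and both genes of each of the clusters of chromosomes 7 and 8. The median log2 fold changes were 2.81, 2.47, 2.67, 3.60 and 2.50 in that order, and 2.22 over the 19 genes outside the clusters, of which 16 rose. After the correction the medians were 0.75, 0.22, 0.61, 1.16 and 0.97, and 0.75 outside. The chromosome 17 cluster then had 2 rises and 2 falls, the chromosome 4 cluster 3 rises and 2 falls, and the clusters of chromosomes 7 and 8 kept all 4 rises. In these clusters Zfp975, a 14-finger KRAB gene, rose by 1.34 ± 0.49 after the correction (SE, adjusted p = 0.0255, edgeR) and Zfp930, a 12-finger KRAB gene, by 1.26 ± 0.31 (adjusted p = 0.00181). Differences between clusters were not tested.

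Genes of the chromosome 4 cluster with similar promoters had different calls. Zfp979 rose after the correction (1.18), Zfp985 was not called (0.44) and Zfp982 fell by 1.03 (SE 0.26, adjusted p = 0.00269, edgeR), although Zfp982 had risen by 1.06 ± 0.34 as scaled. The differences between these genes were not tested. Zfp982 had the lowest of their 3 levels per kb, at 0.550 CPM against 6.06 for Zfp979 and 2.96 for Zfp985. Other tested genes inside the clusters also moved. In the chromosome 4 cluster 16 of 17 rose as scaled (median 2.72), and 9 rose and 1 fell after the correction (median 0.97). In the chromosome 17 cluster 7 of 8 rose (median 2.62), and 5 rose and 1 fell after the correction (1.07). In the chromosome 2 cluster 9 of 15 rose and 1 fell (1.73), and 3 rose and 2 fell after the correction (-0.18). Of 4 in the chromosome 7 cluster 3 rose and 1 fell (3.18), and 2 rose and 1 fell after the correction (0.98). All 4 in the chromosome 8 cluster rose in both fits (3.47 and 2.81).

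The same question in lean mice gave 34 rises and 1 fall among the 50 as scaled, with a median log2 fold change of 1.53. Over all tested genes the shares called were 21.4% higher and 9.5% lower by the same edgeR test, and the median was 0.04. In 12 of the 50 every endpoint library lay above every midpoint library, as in 19.9% of tested genes, so the share without overlap (24%) was near the background. After the correction 3 lay above without overlap, as in 13.9% of tested genes, and 3 below, as in 10.6%. Zfp959 stood at 0.235, 0.309, 0.429 and 0.604 CPM in lean midpoint and at 5.45, 1.29, 3.79 and 3.24 CPM in lean endpoint libraries, and rose by 3.12 ± 0.45 (SE, adjusted p = 0.000224, edgeR). Zfp933, a 12-finger KRAB gene of the chromosome 4 cluster, rose by 2.15 ± 0.35 (adjusted p = 0.00033), Zfp958, a 13-finger one on chromosome 8, by 2.05 ± 0.41 (adjusted p = 0.00111) and Zfp974 by 1.56 ± 0.33 (SE, adjusted p = 0.00153, edgeR). Zfp956 was the gene that fell, by 0.57 (SE 0.19, adjusted p = 0.029, edgeR).

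After the correction 3 of the 50 rose and 4 fell in lean mice, against 14% and 8.38% of tested genes, and the median was 0.35. The members' share of rises was thus below that of all genes. The rises were Zfp959 at 2.03 ± 0.34 (SE, adjusted p = 0.000653, edgeR), Zfp958 at 0.85 ± 0.25 (adjusted p = 0.0221) and Zfp933 at 0.83 ± 0.20 (adjusted p = 0.00562). The falls were Zfp945, Zfp950, Zfp978 and Zfp982. Zfp974, Zfp931, Zfp994 and Zfp971 had corrected values of 0.52, 0.32, 0.60 and 0.59 and were not called (adjusted p = 0.124 to 0.306). In lean mice the count of 35 called genes was 21 without midpoint replicate 1, a fit for which no share of all tested genes is given.

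A total of 33 genes rose in both lean and obese mice as scaled, and the obese value was the larger in 46 of the 50. Whether it differed was the subject of the diet by time interaction. Its median was 1.04 over the 50, with 46 above 0, and edgeR called 0 of them (0% of tested genes), with a smallest adjusted p of 0.0983. An unadjusted p under 0.05 was found for 19 of the 50, near the 33.3% of all tested genes, and for 6 after the correction, below the 19.8% of all. DESeq2 called 8 of the 50, where it called 10.3% of tested genes, and limma-voom 11, where it called 31.3%. All of these were higher. Zfp952 and Zfp945 had the smallest p, at 1.26 ± 0.40 and 1.28 ± 0.41 (SE, adjusted p = 0.0983 for both, edgeR). After the correction they had 0.48 and 0.12, and the median of the 50 was 0.19. The edgeR count was 14 without obese midpoint replicate 1 and 0 with any other library left out. Shares of all tested genes in those fits are not given. With all 18 libraries the smallest adjusted p over all tested genes was the same 0.0983 (edgeR).

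**Figure D4:**
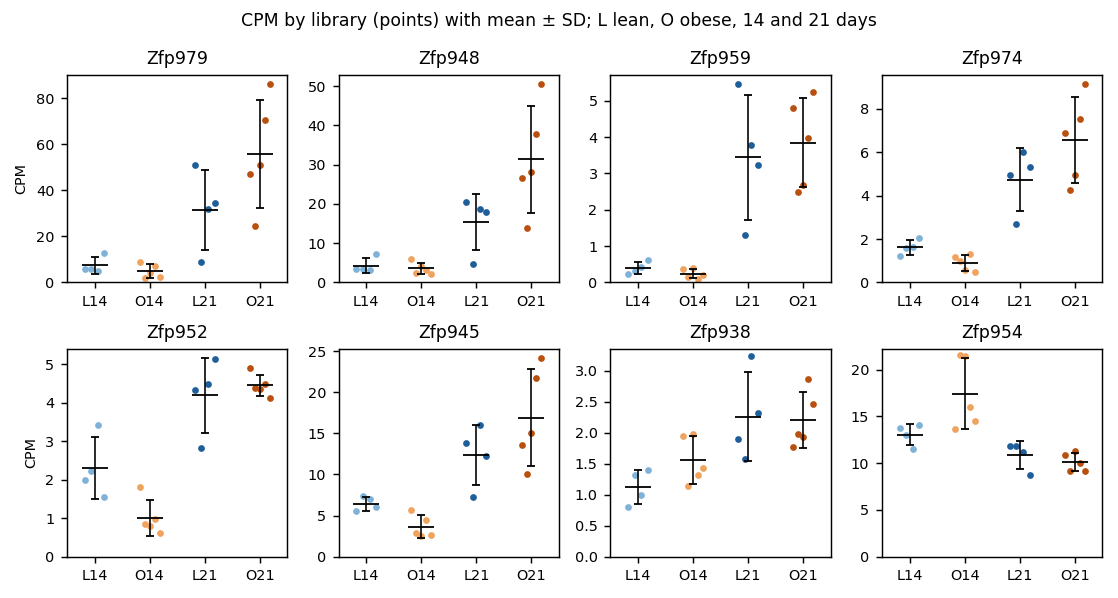
CPM of 8 of the genes in each library (points) with the mean and SD of each group, for lean (L) and obese (O) mice at 14 and 21 days, on axes that start at 0. Zfp979, Zfp948, Zfp959 and Zfp974 are higher at day 21, Zfp952 and Zfp945 are also lower in obese than in lean mice at day 14, Zfp938 lies between 0.806 and 3.23 CPM throughout and Zfp954 is lower at day 21 in obese mice.

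The midpoint comparison of obese with lean mice asks whether the cancer cells differ with the diet of their host. As scaled 0 of the 50 genes were higher and 6 were lower in obese tumors by edgeR (Zfp940, Zfp941, Zfp945, Zfp952, Zfp961 and Zfp992), where 16.7% of tested genes were called higher and 12.8% lower, and the median log2 fold change was -0.41 against 0.00 over all tested genes. The share of members called lower, 12%, was thus near the background. In Zfp940 and Zfp992, 2 of the 50, no obese library reached the lean ones, as in 3.14% of tested genes, and in 0 of the 50 all were above them, as in 4.9%. After the correction 1 lay below without overlap, as in 2.53%, and 4 above, as in 4.46%. Zfp952, a 9-finger KRAB gene on chromosome 17, stood at 2.00, 2.22, 3.43 and 1.55 CPM in lean and at 1.81, 0.857, 0.805, 0.986 and 0.614 CPM in obese midpoint libraries, and obese replicate 1 lay inside the lean range. It fell by 1.17 (SE 0.28, adjusted p = 0.0304, edgeR). Zfp940, a 10-finger KRAB gene, stood at 1.58, 2.68, 2.36 and 1.40 CPM in lean and at 1.29, 0.371, 0.756, 1.17 and 0.686 CPM in obese libraries, without overlap, and fell by 1.22 (SE 0.32, adjusted p = 0.0304). Zfp945 fell by 0.82 (SE 0.29, adjusted p = 0.0399, edgeR) and Zfp941, a 9-finger KRAB gene, by 1.22 (SE 0.43, adjusted p = 0.0412).

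After the correction none of these 6 was called and 3 others rose, against 3.37% of tested genes called higher and 2.23% lower. They were Zfp938 at 1.04 ± 0.24 (SE, adjusted p = 0.0408, edgeR), Zfp978 at 0.85 ± 0.23 (adjusted p = 0.0453) and Zfp933 at 0.77 ± 0.19 (adjusted p = 0.0419). Zfp938 stood at 0.806, 1.31, 0.995 and 1.40 CPM in lean and at 1.95, 1.13, 1.98, 1.32 and 1.43 CPM in obese midpoint libraries, so the groups overlapped as scaled. Zfp952 and Zfp940 had corrected values of -0.53 ± 0.21 (adjusted p = 0.105) and -0.69 ± 0.22 (SE, adjusted p = 0.0607, edgeR). The midpoint calls also changed when single libraries were left out. The smallest adjusted p over all tested genes was the same 0.0304 (edgeR), and shares of all tested genes in those fits are not given. The counts that follow therefore cannot be read as particular to the 50. The count was 0 without lean midpoint replicate 2 or 3 or obese midpoint replicate 2 or 3, 2 without obese midpoint replicate 5, 3 without obese endpoint replicate 3 and 12 (11 lower and 1 higher) without obese midpoint replicate 1.

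At endpoint edgeR called none of the 50 genes between obese and lean mice (0.00612% of tested genes were called higher and 0% lower), with 7 at an unadjusted p under 0.05, as 4.89% of tested genes, and 3 after the correction, as 8.22%. DESeq2 and limma-voom called 0 as well. In 1 of the 50 all obese libraries lay above all lean ones, as in 0.636% of tested genes, and in 0 below them, as in 1.33%. After the correction these counts were 1, as in 0.832%, and 0, as in 2.15%. The median log2 fold change was 0.55, with 44 of the 50 above 0, and 0.25 after the correction with 35 above 0. Zfp978, a 3-finger KRAB gene with 77.4% of its stretches shared, stood at 4.35, 1.44, 2.76 and 2.97 CPM in lean and at 4.69, 3.23, 5.12, 6.32 and 6.36 CPM in obese endpoint libraries, which overlap. It had 0.84 ± 0.28 (SE, adjusted p = 0.975, edgeR). Zfp948 had 1.03 ± 0.41 (adjusted p = 0.989, edgeR), where lean tumors held 15.4 ± 7.24 CPM (SD, n = 4), and the mean of obese ones was 31.4 ± 13.6 CPM (SD, n = 5). The lean and obese comparisons share the midpoint and endpoint libraries with the comparisons over time above, so their values are not independent.

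Other genes named Zfp with 1 to 3 digits, 257 of them tested, were set beside the 50. In obese mice 163 rose and 56 fell from midpoint to endpoint as scaled, with a median log2 fold change of 1.51, and their median GC content was 46.7%. Those with the KRAB signature had 93 rises and 7 falls among 110 (median 2.41), beside 45 and 2 of 50 here. Those without it had 70 and 49 among 147 (median 0.29). After the correction the KRAB-type genes had 56 rises and 3 falls (median 0.64) and the others 64 and 22 (median 0.35). The corrected medians of the 110 and of the 50 genes were equal to 2 decimals. The share of falls was 2.73% in the 110 and 14% in the 50. The difference between the lists was not tested.

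A list of partners of KRAB zinc finger proteins and of the silencing they start held 37 tested genes. It includes the zinc finger genes Zfp57, Zfp809, Zkscan3 and Zbtb33, which are not corepressors recruited by KRAB. Zfp57 and Zfp809 are also among the other Zfp genes above. In obese mice 27 rose and 6 fell with time as scaled (median 1.46), or 73.0% and 16.2%, against 37.8% and 36.1% of all tested genes. After the correction 16 rose and 5 fell (median 0.43), or 43.2% and 13.5%, against 29.4% and 25% of all. Trim28, the shared corepressor, fell by 1.40 (SE 0.20, adjusted p = 5.7e-06, edgeR) as scaled and by 0.59 (SE 0.11, adjusted p = 0.000133) after the correction, from 492 ± 156 to 187 ± 21.8 CPM (SD, n = 5 and 5). The smallest p (adjusted p = 3.3e-07 to 5.5e-07 as scaled, edgeR) belonged to Zfp809, a KRAB protein that silences murine leukemia viruses (2.81 ± 0.28 as scaled and 2.13 ± 0.25 corrected), and Morc3, an ATPase of heterochromatin (2.42 ± 0.26 and 0.56 ± 0.15). They were followed by Smarcad1, a chromatin remodeler that binds TRIM28 (2.34 ± 0.26 and -0.06), and Fam208a, the HUSH complex subunit TASOR (3.20 ± 0.35 and 0.54 ± 0.14). In lean mice 18 rose and 3 fell as scaled (48.6% and 8.11%, against 21.4% and 9.5% of all tested genes). After the correction 6 rose and 3 fell (16.2% and 8.11%), near the 14% and 8.38% of all. Morc3 (1.89), Cbx3, the HP1 gamma gene (1.60), Smarcad1 (1.61) and Zfp809 (1.63) had the smallest p as scaled. The corrected values of these 4 were 0.84, 0.37, 0.24 and 1.30, and those of Cbx3 and Smarcad1 were no longer called (adjusted p = 0.214 and 0.27, edgeR). At midpoint 3 were higher and 7 lower in obese tumors (8.11% and 18.9%, against 16.7% and 12.8% of all tested genes). After the correction 1 was higher and 2 were lower (2.70% and 5.41%, against 3.37% and 2.23% of all). Hdac2, a deacetylase, fell by 1.51, while Mbd3, its partner in the NuRD complex, rose by 1.06, Ehmt2, the methyltransferase G9a, by 0.82 and Trim28 by 0.73 (adjusted p = 0.0304 for all 4, edgeR). After the correction Hdac2 remained lower, at -0.90 ± 0.25 (SE, adjusted p = 0.047), while Trim28 had 0.32 ± 0.11 (adjusted p = 0.0765), Mbd3 0.29 ± 0.25 (adjusted p = 0.473) and Ehmt2 0.17 ± 0.11 (adjusted p = 0.339).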

How the data were processed

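RNA of sorted mCherry-positive tumor cells was sequenced, and the authors deposited whole-number read counts per gene with gene coordinates, raw and not normalized, judged by their values. TopHat, DESeq and mm10 are named in the submitters' processing notes. The labels name no counting tool, annotation release or use of strand, so overlapping and antisense genes cannot be told apart. The 18 libraries were fitted together with edgeR 4.0.16 in R 4.3.3 (quasi-likelihood test, TMM scaling, filterByExpr, 1 mean per group, Benjamini-Hochberg adjustment over 16352 genes, threshold 0.05). The correction for GC content and length used mgcv 1.9.3 smooths per library as offsets, with GC content known for 98.6% of tested genes. DESeq2 1.42.0 and limma 3.58.1 were alternatives. Fingers and the KRAB signature were read from GENCODE M21 coding sequences, and promoters were aligned with Biopython 1.88. Scripts were tested on simulated data. A lean endpoint library, replicate 4, was left out, since nearly all of its counts lay on chromosomes 1 to 4.

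The genes and lists were chosen with earlier results of these data known. Genes were named for the smallest p per comparison and direction, the highest level per kb overall and per cluster, nearness to the count minimum, and calls that turned with the correction. Zfp970, Zfp982 and the genes listed only by their call were added after their values were seen.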

Additional observations from a re-analysis of the deposited data

Results flagged for a closer look

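In 104 tests of a named gene in a group, 11 had 1 library far from the others (gap to the nearest over the range, Dixon's 95% value). Chance gives about 1 in 20 per test. The genes share libraries, so the tests are not independent and the 11 cannot be weighed against that rate. All values are log2 CPM. Lean endpoint replicate 2 was low in 4 genes. It had 0.53 for Zfp930, against 2.19 to 2.27 in the others, and 1.42 for Zfp933, against 2.66 to 2.84. It had 2.22 for Zfp948, against 4.16 to 4.35, and 3.86 for Zfp961, against 4.56 to 4.66. This library also had the GC slope nearest 0, the average of the libraries, among the endpoint libraries (-0.07). The part of that slope in these values was not tested.

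Lean midpoint replicate 4 was high in 3 genes, with 2.87 for Zfp948 (1.69 to 1.77 in the others), 3.70 for Zfp979 (2.37 to 2.54) and 0.42 for Zfp994 (-0.51 to -0.37). Zfp941 stood apart in 3 groups, at 1.04 in lean midpoint replicate 3 (0.27 to 0.38), 1.08 in lean endpoint replicate 5 (1.31 to 1.36) and 2.13 in obese endpoint replicate 5 (1.64 to 1.68). Zfp934 had -4.15 in obese midpoint replicate 5, its only count in that group, against -4.71 in the others. Since the others held 0 counts, a single count there is flagged whatever the spread.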

How the results depend on the processing

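The counts of the 50 genes called were 6 between diets at midpoint, 35 over time in lean and 47 over time in obese mice, and 0 at endpoint and for the interaction. At endpoint 0 were called under every alternative run. After the correction for GC content and length the counts were 3 at midpoint, 7 over time in lean and 26 over time in obese mice. With a replicate block beside the correction they were 0, 6 and 25. With the correction and without lean endpoint replicate 2, an alternative chosen after seeing the data, they were 2, 10 and 28. DESeq2 called 8 for the interaction. Limma-voom called 11 at midpoint and 11 for the interaction. The compared groups alone gave 0 at midpoint. A filter of 5 CPM, which left 16 of the genes, gave 15 over time in lean and 16 in obese mice. On chromosomes 1 to 4 with all 19 libraries, which held 18 of the genes, the counts were 1, 10 and 17. With all 19 libraries genome-wide they were 0 at midpoint and 5 over time in lean mice. Leaving out each library in turn gave 0 to 12 at midpoint, 0 to 14 for the interaction, 21 to 40 over time in lean and 47 to 48 in obese mice. The causes of these differences were not tested, other than the fewer genes tested. Apart from those stated above, shares of all tested genes called in these runs are not given. The counts therefore cannot be read as particular to the 50. Zfp945 over time in obese mice turned only in fits with the correction, to -0.50 with it alone, to -0.50 with the block beside it and to -0.51 with lean endpoint replicate 2 also left out. Without that library and without the correction it had 2.20. Zfp933 at midpoint turned to -0.21 with limma-voom and ranged from -0.10 (without obese midpoint replicate 1) to 0.24 with each library left out. Only 28 results were followed in this way, namely some named genes in single comparisons and the number of genes in the set. Among them 709 values kept direction and call, 80 lost the call, 10 gained it and 5 turned (Zfp933 and Zfp945 as above). Zfp938 and Zfp982 over time in obese mice, which turned with the correction, were not followed. Of the rises called as scaled, 9 of 45 in obese and 4 of 34 in lean mice had a value below 0 after the correction.

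Groups share replicate numbers only as names: over 24 same-numbered pairs the correlation of deviations was -0.403 to 0.551, with 6 over 0.1, and a library correlated best with its own number in 10 of 48 cases. The fit with a replicate block called 9 at midpoint, 30 over time in lean and 47 in obese mice, and 0 otherwise. Shares of all tested genes for this fit are not given. For the genes below 1 CPM, 15 of the 50, counting error limits what a difference can show.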

Other observations

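The lean endpoint library left out, replicate 4, held 11889188 counts, of which 10935241 lay on chromosomes 1 to 4. On CPM of chromosome 1 to 4 counts, 14 of the 18 genes there stood above every lean midpoint library. The share of all genes on these chromosomes that did so is not given, and the values are not corrected for GC content and length. The count therefore cannot be read as particular to these genes. Against the other lean endpoint libraries 11 lay inside their range, 6 above and 1 below. The median of the 18 genes was 6.17 CPM in this library, 2.98 CPM over the lean midpoint and 7.52 CPM over the other lean endpoint libraries.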
